A study of Mus musculus with 19 samples.

Results

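The glycolytic enzymes described here are 10 listed genes, Hk1, Gpi1, Pfkp, Aldoa, Tpi1, Pgk1, Pgam1, Eno2, Ldha and Ldhb. No measured value entered the rule, but the list was drawn up with earlier results of these data known. Of the 10, 9 had at least 1 probe set that the array annotation assigns to that gene alone, and these 9 held 23 probe sets out of 45037 on the array and stood among 18193 genes. Gpi1 was not analysed here. Its 9 companions were read on all 19 arrays, both as the median of a gene's probe sets and probe set by probe set.

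Each Affymetrix mouse array held RNA from a pool of dendrites cut mechanically from hippocampal pyramidal neurons in dispersed primary culture. The embryos were of 2 inbred mouse strains, Balb/c or C57BL/6, at day E18, and the neurons had grown for 14 days with no treatment that the labels name. Balb/c was measured on 5 arrays (2 with 100 dendrites, 1 with 200 and 2 with 400) and C57BL/6 on 14 (4, 5 and 5 at these sizes). Arrays carry their strain, pool size and replicate as a name, and Balb/c 400-2 is thus replicate 2 of the Balb/c pools with 400 dendrites. Axons could not be told from dendrites by shape at collection, so a pool can hold some axonal RNA. Values are log2 expression values.

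Glycolysis splits glucose into pyruvate in the cytosol. Hexokinase traps glucose inside the cell, the isomerase Gpi1 rearranges it, phosphofructokinase commits it to the pathway, and aldolase and triose phosphate isomerase divide it into interconvertible sugars. Gapdh, phosphoglycerate kinase, phosphoglycerate mutase, enolase and pyruvate kinase then harvest ATP and yield pyruvate, which lactate dehydrogenase converts to lactate and back. In brain, glia are known for releasing lactate and neurons for taking it up, and synapses far from the cell body are thought to draw part of their ATP from local glycolysis. Many of these enzymes exist as several isozymes, and messenger RNAs for some have been found in neuronal processes.

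Several arrays stood apart over all genes. Balb/c 200-1, C57BL/6 200-1 and C57BL/6 400-1 resembled each other across the strains, and Balb/c 100-2 and Balb/c 400-1 had the fewest distinct values, 1569 and 2052. Pyramidal neuron markers were partly present, with 4 of 11 measured (Neurod6, Rbfox3, Nrgn and Syt1) above the array background on most C57BL/6 arrays. That background was the 95th percentile, on the same array, of 70 olfactory and vomeronasal receptor genes, sensory receptors not known in these neurons. Above it on most C57BL/6 arrays were 0 of 9 astrocyte, 0 of 7 oligodendrocyte, 0 of 8 microglia and 1 of 6 interneuron markers (Gad1). Of 4 endothelial and red cell markers, Kdr and Hba-a1 were above it on most C57BL/6 arrays. Strain calls among these markers were 4 lower and 1 higher in Balb/c for pyramidal neurons, 2 lower and 0 higher for astrocytes, 0 lower and 3 higher for oligodendrocytes, 0 lower and 4 higher for microglia, 2 lower and 1 higher for interneurons, and 1 lower and 1 higher for endothelial and red cells. Over all genes 11.4% were called lower and 21.1% higher in Balb/c.

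The promoters of 4 enzymes are shown first, because these genes, with Aldoa, were the members lower in Balb/c below. Glycolytic genes are also textbook targets of the factor HIF-1, whose element often holds the letters ACGTG. Each sequence is the 160 bases before the start of the gene, 5′ to 3′ on the strand of the gene, from the RefSeq promoter table of build GRCm38.p6, and capitals mark ACGTG read on either strand. Where ACGTG is preceded by C, the matches on both strands overlap.
Ldha, chr7:46845644-46845803, + strand: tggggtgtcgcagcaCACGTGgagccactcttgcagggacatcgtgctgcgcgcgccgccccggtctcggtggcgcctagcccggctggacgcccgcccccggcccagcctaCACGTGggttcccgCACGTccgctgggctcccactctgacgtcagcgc
Pgk1, chrX:106186940-106187099, + strand: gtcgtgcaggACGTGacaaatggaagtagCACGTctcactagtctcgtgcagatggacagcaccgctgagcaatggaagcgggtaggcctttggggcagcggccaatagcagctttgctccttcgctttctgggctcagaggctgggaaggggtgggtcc
Pgam1, chr19:41911711-41911870, + strand: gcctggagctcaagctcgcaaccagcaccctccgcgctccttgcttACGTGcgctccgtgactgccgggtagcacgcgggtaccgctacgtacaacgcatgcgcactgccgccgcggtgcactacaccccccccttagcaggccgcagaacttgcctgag
Ldhb, chr6:142507958-142508117, - strand: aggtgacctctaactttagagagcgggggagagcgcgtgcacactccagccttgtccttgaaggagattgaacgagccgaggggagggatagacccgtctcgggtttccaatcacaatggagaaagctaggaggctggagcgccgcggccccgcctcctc

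The table held 14 windows of 300 bases (250 before to 50 after a start) for the 10 genes, since some have more than 1 start. ACGTG on either strand lay in a window of 5 genes, Hk1, Aldoa, Pgk1, Pgam1 and Ldha, and in no window of Gpi1, Pfkp, Tpi1, Eno2 and Ldhb. Of all 27025 genes with windows, 21.8% had a match. A match describes these letters and is not a binding site, and other forms of the element were not searched. The letters are the same for both strains here because they come from 1 reference genome.

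Taken as gene medians, the enzymes fell into a bright and a dim set on the C57BL/6 arrays. Aldoa, Pgk1, Pgam1, Ldha and Ldhb lay above the sensory receptor background on 14 of 14 C57BL/6 arrays. Hk1, Pfkp, Tpi1 and Eno2 lay above it on 0 of 14. On the Balb/c arrays the median of Aldoa lay above it on 1 of 5, Pgk1, Pgam1 and Ldhb on 2 each, Ldha on 3 and Eno2 on 1. Single probe sets gave another count for several genes. In C57BL/6 the Hk1 set 1437974_a_at lay above the background on 12 of 14 arrays and the Tpi1 set 1452927_x_at on 3, whereas no set of Pfkp or Eno2 did on any. In Balb/c the Ldhb set 1416183_a_at lay above it on 5 of 5 arrays, the Aldoa set 1416921_x_at on 4 and the Pgk1 set 1439435_x_at on 3. The background itself was higher in Balb/c, where the median sensory receptor gene averaged 6.76 ± 0.08 (SD, n = 5) against 6.04 ± 0.30 (n = 14). Across all genes, between 6.05% and 16.1% lay above this level on a C57BL/6 array and between 5.03% and 9.31% on a Balb/c array.

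A percentile among all genes of an array gives the same picture without a threshold. The median percentile over the C57BL/6 arrays was 99.6 for Ldhb, 99.5 for Pgam1, 98.5 for Pgk1, 97.6 for Ldha and 96.9 for Aldoa, so these 5 stood near the top of the array. It was 74.3 for Hk1, 60.8 for Tpi1, 56.99 for Pfkp and 21.1 for Eno2. Percentiles place a gene's probe sets on the array and do not rank the amounts of different transcripts, because probe sets bind with different strength. In Balb/c the medians were 93.5 for Ldha, 93.1 for Pgk1 and for Pgam1, 91.8 for Ldhb and 85.2 for Aldoa, with lowest arrays at 14.5 for Ldha, 48.6 for Pgam1 and 58.6 for Pgk1.

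**Figure D1:**
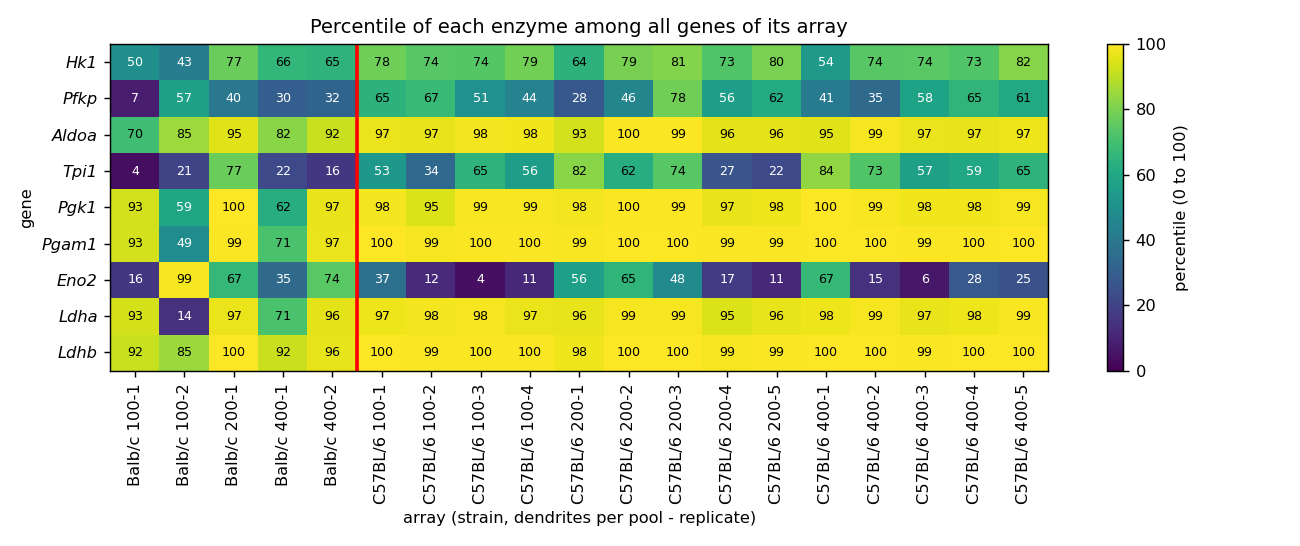
Each row is a glycolytic enzyme and each column an array, with the 5 Balb/c arrays left of the red line and the 14 C57BL/6 arrays right of it. Numbers and colour give the percentile of the gene among all 18193 genes of that array. Aldoa, Pgk1, Pgam1, Ldha and Ldhb fill the top of the scale on every C57BL/6 array, whereas on Balb/c 100-2 Ldha is at 14.5 and Eno2 at 98.8.

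Between the strains, 5 of the 9 measured enzymes were lower in Balb/c (Aldoa, Pgk1, Pgam1, Ldha and Ldhb), 1 was higher (Eno2) and 3 did not pass the test (Hk1, Pfkp and Tpi1), by limma over all genes with Benjamini-Hochberg adjustment at 0.05. Of all genes, 11.4% were called lower and 21.1% higher in Balb/c. The median difference of the 9 enzymes was −2.21 on the log2 scale. All differences are Balb/c minus C57BL/6. For genes they are relative to the median gene, which was 0.216 higher in Balb/c. For probe sets they are relative to the median probe set, which was 0.252 higher. Each alternative fit used its own median, while the tests used the values as deposited. The 5 lower enzymes are those whose gene median stood above the array background in C57BL/6. Hk1 had a probe set above it on most C57BL/6 arrays without passing as a gene. In such bulk pools, fewer processes of a kind and less RNA in each cannot be told apart.

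**Figure D2:**
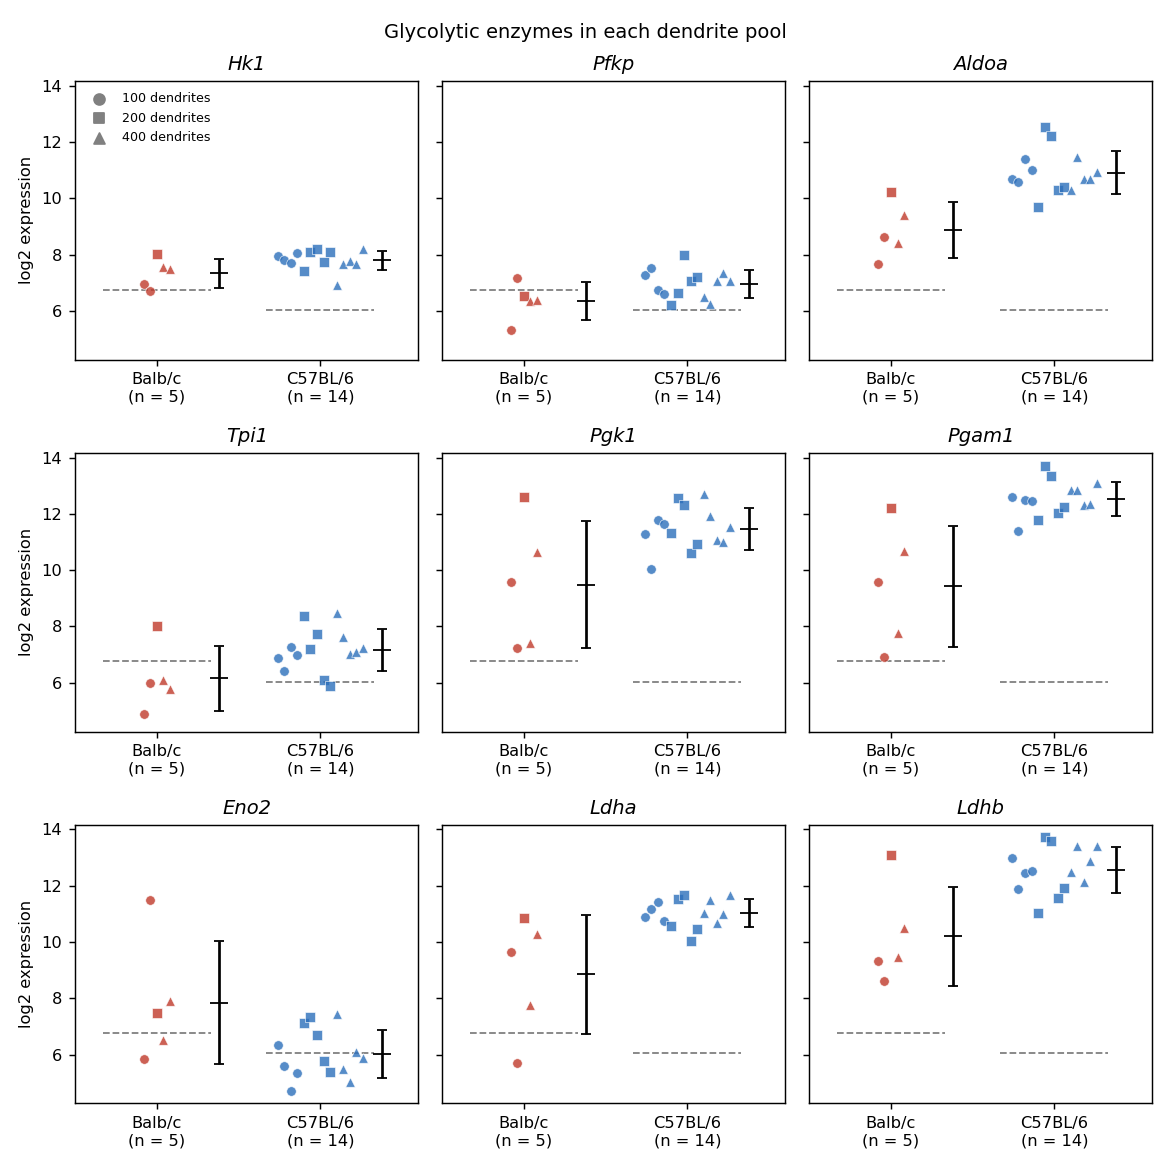
The y axis is log2 expression, each point is 1 array, and the marker gives the dendrites per pool. Bars show the mean ± SD beside each group, and dashed lines the mean over a strain's arrays of the median sensory receptor gene. The Balb/c points of Aldoa, Pgk1, Pgam1, Ldha and Ldhb lie mostly below the C57BL/6 points, with the square of Balb/c 200-1 inside the C57BL/6 range in each of these panels.

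The same arrays carried the low values in all 5 enzymes. Balb/c 100-1, 100-2 and 400-1 lay below every C57BL/6 array for 5 of the 5, Balb/c 400-2 for 3 of the 5, and Balb/c 200-1 for 0 of the 5. No enzyme separated the strains fully. All 5 Balb/c arrays lay below all 14 C57BL/6 arrays for 0 of the 9 enzymes, against 0.418% of all genes. The spread was also unequal, since the SD was larger in Balb/c for 9 of 9 enzymes and for 58.7% of all genes. For Pgk1 it was 2.26 against 0.75 and for Ldha 2.11 against 0.50. The fit takes 1 spread for both strains, so its SE and p can be too small where the strain with fewer arrays varies more. With array weights per strain the calls were again 5 lower and 1 higher, beside 8.72% and 15.0% of all genes. Those weights are set over all genes and do not follow the spread of a single enzyme.

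The step that traps glucose showed the smallest difference. Hk1, the main hexokinase of brain, read 6.96, 6.71, 8.01, 7.55 and 7.49 on Balb/c 100-1, 100-2, 200-1, 400-1 and 400-2 and between 6.94 and 8.21, with a median of 7.80, in C57BL/6. Only Balb/c 100-2 lay below the C57BL/6 range. The difference was −0.68 ± 0.23 (SE; 5 and 14 arrays; limma adjusted p = 0.124). Its 2 probe sets parted, with −1.04 ± 0.30 for 1437974_a_at (adjusted p = 0.0493, over all probe sets) and −0.39 ± 0.31 for 1420901_a_at (adjusted p = 0.758). Another probe set listed for Hk1, 1436822_x_at, carries 6 gene symbols, Rpl17 among them, and was left out.

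Pfkp, the platelet type of phosphofructokinase and a common one in brain, did not pass the test. It read 5.32, 7.18, 6.53, 6.36 and 6.39 in Balb/c in the same order and between 6.20 and 7.98, with a median of 7.07, in C57BL/6. Of the 5 Balb/c arrays, 4 lay within the C57BL/6 range. The difference was −0.83 ± 0.29 (adjusted p = 0.106). It was +0.72 (adjusted p = 0.167) when Pfkp was represented by its probe set of highest mean, since 1437759_at read 10.96 on Balb/c 100-1 and between 6.36 and 7.33 on the other Balb/c arrays.

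Aldoa, the aldolase of muscle and brain that splits the 6-carbon sugar, was lower in Balb/c. It read 7.66, 8.62, 10.24, 8.42 and 9.42 in Balb/c against 9.69 to 12.54, with a median of 10.69, in C57BL/6. The Balb/c arrays other than 200-1 lay below every C57BL/6 array. The difference was −2.26 ± 0.40 (adjusted p = 0.000929). It ran from −2.64 to −1.94 when each array was left out in turn. All 5 of its probe sets end in _x_at, the maker's mark for probes that can bind similar sequences of other genes, so no reading of Aldoa free of such probes could be had.

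The 5 Aldoa probe sets did not move as 1. Those called lower were 1439375_x_at, at −3.10 ± 0.49 (adjusted p = 0.000395), and 1447734_x_at, at −2.11 ± 0.44 (adjusted p = 0.00344), and these tracked each other over the C57BL/6 arrays with r = 0.979. The differences of 1416921_x_at, 1433604_x_at and 1434799_x_at were −0.75, −0.36 and −0.80 and did not pass. Over the C57BL/6 arrays 1433604_x_at and 1434799_x_at correlated with each other at 0.827 and with the called pair at −0.32 to −0.0048. Both were highest on C57BL/6 100-2, where they read 10.49 and 11.59 against C57BL/6 medians of 6.73 and 7.98.

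Tpi1, which interconverts the 3-carbon sugars, missed the threshold as a gene but not in every probe set. As a gene it read 4.88, 5.99, 8.03, 6.09 and 5.79 in Balb/c and between 5.88 and 8.47, with a median of 7.15, in C57BL/6, a difference of −1.23 ± 0.41 (adjusted p = 0.0634). Balb/c 200-1 lay high in the C57BL/6 range and 2 Balb/c arrays lay below it. The probe set 1452927_x_at read 4.88, 6.10, 8.05, 6.09 and 5.79 in Balb/c and 7.71 to 10.79 (median 8.68) in C57BL/6, a difference of −2.84 ± 0.46 (adjusted p = 0.000493). A further set, 1435659_a_at, differed by −1.84 ± 0.32 (adjusted p = 0.00134) and the last, 1415918_a_at, by −0.67 ± 0.39 (adjusted p = 0.418).

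Gapdh, the next enzyme, had no probe set assigned to it alone and was read from control probe sets. The set at its 3′ end, nearest to where amplification starts, ran from 12.04 to 12.59 in Balb/c and from 11.89 to 12.32 in C57BL/6, so the strain ranges overlapped and spanned under 1 log2 unit. On Balb/c 100-2, the array with the lowest Pgam1 value, it read 12.32. The other control sets spread more widely. The middle set ran from 7.82 to 10.09 in Balb/c and from 7.96 to 9.47 in C57BL/6, and the 5′ set from 7.63 to 11.11 and from 7.31 to 9.72. A further set that carries 5 symbols, Gapdh among them, 1418625_s_at, differed by −0.11 on the log2 scale. As deposited its difference was +0.14 (unadjusted limma p = 0.555). The sets 1447999_x_at and 1457612_at, which carry 2 symbols, Gapdh and Gapdh-ps15, differed by −0.56 and −0.32. As deposited these were −0.31 and −0.07 (unadjusted limma p = 0.316 and 0.845). Control values were not part of the fit.

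Pgk1, which makes the first ATP of the pathway, was lower in Balb/c. Its values were 9.58, 7.23, 12.59, 7.41 and 10.63 in Balb/c and 10.04 to 12.69, with a median of 11.43, in C57BL/6. Balb/c 200-1 and 400-2 lay within the C57BL/6 range and the other 3 below it. The difference was −2.21 ± 0.59 (adjusted p = 0.0138). Leaving out each array in turn gave −3.02 to −1.64. Its 3 probe sets agreed, at −2.55, −2.63 and −2.05, all called, with correlations of 0.920 to 0.988 over the C57BL/6 arrays.

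Pgam1, the brain form of phosphoglycerate mutase, showed the largest difference of the 9 enzymes in size. Its only probe set read 9.57, 6.90, 12.22, 7.77 and 10.68 in Balb/c against 11.38 to 13.72, with a median of 12.47, in C57BL/6. Again 4 of the 5 Balb/c arrays lay below all of C57BL/6. The difference was −3.32 ± 0.55 (adjusted p = 0.000472), and −4.06 to −2.69 with 1 array left out. Because Pgam1 lay above the array background on 2 of 5 Balb/c arrays, the size of this difference is limited by that background, as is that of Aldoa, Pgk1, Ldha and Ldhb, and no fold is given.

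Eno2, the enolase of mature neurons, was the enzyme that rose. Its only probe set read 5.84, 11.48, 7.48, 6.50 and 7.91 in Balb/c and 4.71 to 7.45, with a median of 5.82, in C57BL/6. The difference of +1.61 ± 0.60 (adjusted p = 0.0239) rested on Balb/c 100-2, since without that array it was +0.71 (adjusted p = 0.139). On the C57BL/6 arrays the probe set never reached the sensory receptor background, so its values there lay among those of the sensory receptor genes.

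Ldha and Ldhb, the lactate dehydrogenase subunits typical of muscle and of heart and neurons, were both lower. Ldha read 9.66, 5.70, 10.87, 7.77 and 10.27 in Balb/c against 10.02 to 11.68 in C57BL/6 (mean 11.02 ± 0.50, SD), and 3 Balb/c arrays lay below that range. The difference was −2.38 ± 0.52 (adjusted p = 0.00387). Ldhb read 9.33, 8.60, 13.10, 9.46 and 10.48 against 11.03 to 13.72 (median 12.50), with Balb/c 200-1 alone inside the range. The difference was −2.59 ± 0.52 (adjusted p = 0.00207). With 1 array left out, Ldha ran from −2.92 to −1.59, the smallest without Balb/c 100-2, and Ldhb from −3.35, without Balb/c 200-1, to −2.19.

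Within Ldhb the probe sets did not all fall. The set 1434499_a_at read 3.99, 5.79, 13.28, 2.77 and 9.98 in Balb/c and 11.05 to 13.86 (median 12.72) in C57BL/6, so on Balb/c 400-1 it sat near the lowest value of the table, 2.12. Its difference was −5.83 ± 1.03 (adjusted p = 0.000649), with −2.49 for 1448237_x_at and −2.74 for 1455235_x_at, both called. In contrast 1416183_a_at read 12.20, 13.11, 11.56, 13.30 and 12.10 in Balb/c and 11.41 to 12.72 (median 11.69) in C57BL/6, a difference of +0.38 ± 0.28 (adjusted p = 0.0857), and 3 of the 5 Balb/c arrays lay within the C57BL/6 range. The 3 falling sets correlated with each other at 0.987 to 0.991 over the C57BL/6 arrays and with 1416183_a_at at 0.19 to 0.28. Over the 5 Balb/c arrays, too few for more than a description, 1416183_a_at read lowest on Balb/c 200-1, where the falling sets read highest.

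**Figure D3:**
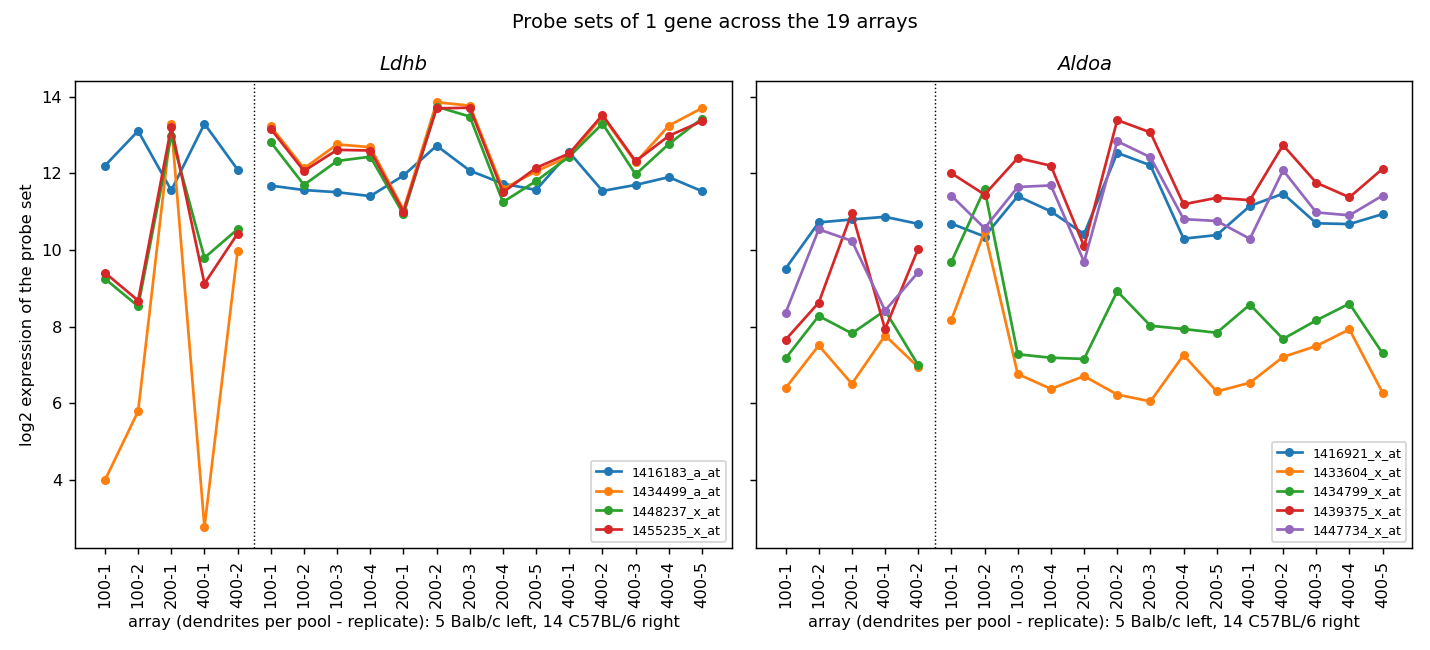
Lines join the log2 values of each probe set of Ldhb (left) and Aldoa (right) over the arrays, Balb/c left of the dotted line and C57BL/6 right of it. The Ldhb set 1434499_a_at drops to 2.77 on Balb/c 400-1 where 1416183_a_at reads 13.30, and the Aldoa sets 1433604_x_at and 1434799_x_at peak on C57BL/6 100-2.

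Over all 23 probe sets of the enzymes, 13 were lower in Balb/c, 1 was higher and 9 did not pass. Of all probe sets, 11.6% were called lower and 21.3% higher. Probe sets of 1 gene share their transcript and are not replicates of each other.

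No enzyme was called for a trend with the number of dendrites in a pool. In the fit of a slope per doubling of dendrites, with strain as a covariate, 0 of the 9 enzymes passed (limma, adjusted over all genes) and 0 had an unadjusted p under 0.05. Of all genes 0% passed, with 850 of 18193 at an unadjusted p under 0.05. The steepest slopes were +0.31 ± 0.29 per doubling for Pgam1 and +0.30 ± 0.28 for Ldhb, so a rise of the size of these errors was not detectable. The strain difference was also read within pools of 400 and of 100, which leaves out Balb/c 200-1. In pools of 400 dendrites Pgam1 differed by −3.75 (adjusted p = 0.0073) and Ldhb by −3.17 (adjusted p = 0.00414), and in pools of 100 by −4.21 (adjusted p = 0.015) and −3.71 (adjusted p = 0.005). Lower enzymes were 6 of 9 in pools of 400 and 5 in pools of 100, beside 7.34% and 5.65% of all genes. Pools of 200 held 1 Balb/c array and were not fitted. It read 12.22 for Pgam1 and 13.10 for Ldhb, against 11.78 to 13.72 and 11.03 to 13.72 in the C57BL/6 pools of 200.

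A technical split of the deposited columns touches every strain result. Values for all Balb/c arrays, and for C57BL/6 100-1, 100-2, 200-1 and 400-1, were written with more decimals than those of the other 10 C57BL/6 arrays. With this number format as a block, 1 enzyme, Pgam1, passed as lower (−2.85, adjusted p = 0.0489) and 0 as higher, against 1.28% and 0.649% of all genes. Ldha differed by −2.19 (adjusted p = 0.0981), Aldoa by −1.57 (adjusted p = 0.09996), Ldhb by −2.03 (adjusted p = 0.111), Tpi1 by −1.51 (adjusted p = 0.140), Pgk1 by −1.98 (adjusted p = 0.175) and Eno2 by +1.08 (adjusted p = 0.366). Within the 9 arrays of the longer format, 5 Balb/c and 4 C57BL/6, 0 of the 9 enzymes and 0% of all genes passed. The enzymes had adjusted p of 0.329 to 0.839. An unadjusted p under 0.05 was found for 5 enzymes, beside 2367 of 18193 genes. Both fits give the same estimates, because all Balb/c arrays have the longer format and are set against the 4 C57BL/6 arrays that share it. All 9 enzymes kept their sign in these estimates, which is 1 reading rather than separate checks.

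Leaving out arrays that stood apart moved the calls in both directions. Without the 3 arrays between the strains, 8 of the 9 enzymes passed, 7 lower and 1 higher, in a fit that called 15.3% of all genes lower and 28.2% higher, and Pgam1 differed by −4.11 (adjusted p = 8.4e-06). These arrays were picked for lying between the strains, so that leaving them out enlarges differences by construction. Without Balb/c 100-2 and 400-1, in a fit that called 5.21% of all genes lower and 6.13% higher, 2 enzymes passed. They were Pgam1 at −1.90 (adjusted p = 0.0237) and Aldoa at −2.01 (adjusted p = 0.029). Ldhb was at −1.79 (adjusted p = 0.0753), Ldha at −0.95 (adjusted p = 0.129) and Pgk1 at −0.74 (adjusted p = 0.488). Balb/c 100-2 and 400-1 were chosen after seeing the data. They had the lowest means of the 5 lower enzymes, 7.41 and 8.16, so leaving them out shrinks those differences by construction. Pgk1 also lost its call when either array was left out alone, at −1.64 without Balb/c 100-2 (adjusted p = 0.0752) and at −1.67 without Balb/c 400-1 (adjusted p = 0.0763).

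The Actb sign of RNA quality moved with strain as well, whereas that of Gapdh averaged 3.14 in Balb/c and 3.27 in C57BL/6. The difference between the 3′ and 5′ control sets of Actb, larger where amplified RNA is shorter, ran from −0.69 to 2.27 in Balb/c. In C57BL/6 it was 1.17 on 200-1, 1.65 on 400-1 and 3.27 to 5.56 on the other 12 arrays. That of Gapdh ran from 1.48 to 4.72 in Balb/c and from 2.39 to 5.00 in C57BL/6. Pyramidal neuron markers averaged 7.07 to 8.30 on a Balb/c array and 8.03 to 8.59 on a C57BL/6 array. Microglia markers averaged 6.70 to 7.24 and 5.66 to 6.76. Astrocyte markers averaged 6.24 to 7.87 and 6.70 to 7.85. The part of RNA quality and marker levels in the enzyme differences was not tested.

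The wider pathway held calls in both directions. Of 59 other genes of glycolysis, its transporters, regulators and the entry of pyruvate into mitochondria, 50 were measured, of which 10 were lower in Balb/c, 8 higher and 32 did not pass. These are 20% lower and 16% higher, beside 11.4% and 21.1% of all genes. The median difference was −0.14, against 0 for all genes by construction and −2.21 for the 9 enzymes. Among 18 measured isozymes and remaining steps 4 were lower and 5 higher, among 7 transporters 2 were lower and 0 higher, among 14 regulators and branch enzymes 2 were lower and 1 higher, and among 11 genes of pyruvate entry 2 were lower and 2 higher.

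The transporters that fell are forms typical of neurons. Slc2a3, the glucose transporter GLUT3, read 5.48, 5.12, 5.54, 4.76 and 4.83 in Balb/c and 5.97 to 8.23 (median 7.19) in C57BL/6, and the groups did not overlap. Its difference was −2.17 ± 0.29 (adjusted p = 0.000141). Slc16a7, the lactate and pyruvate carrier MCT2, read 5.55, 4.58, 6.04, 5.92 and 5.54 against 5.31 to 8.54 (median 8.01), and the groups overlapped although every Balb/c array lay below the C57BL/6 mean. Its difference was −2.38 ± 0.43 (adjusted p = 0.00109).

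Genes named for the same step were called in both directions. Of the other phosphofructokinases, Pfkm, the muscle form, was at −1.42 ± 0.29 (adjusted p = 0.00392) and Pfkl, the liver form, at +1.08 ± 0.34 (adjusted p = 0.00652). Among genes named for enolase, Eno4, a distant relative known from sperm, was at +1.06 ± 0.35 (adjusted p = 0.00836), while Eno3, the muscle form, was at −1.35 ± 0.37 (adjusted p = 0.0219). Eno3 was chosen after its values were seen. Ldhd, which oxidises D-lactate in mitochondria, was at +1.23 ± 0.30 (adjusted p = 0.00132). Pgam5 shares the mutase fold but acts as a mitochondrial phosphatase, and was at −1.67 ± 0.36 (adjusted p = 0.00513). Gpd2, the mitochondrial arm of the glycerol phosphate shuttle, was at −1.16 ± 0.22 (adjusted p = 0.00358) and lay below the C57BL/6 mean on 5 of 5 Balb/c arrays. With genes whose mean lay under the sensory receptor level left out, 2 of the 50 other pathway genes remained, so the others were not separated from that background, which was itself higher in Balb/c by more than the median gene.

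**Figure D4:**
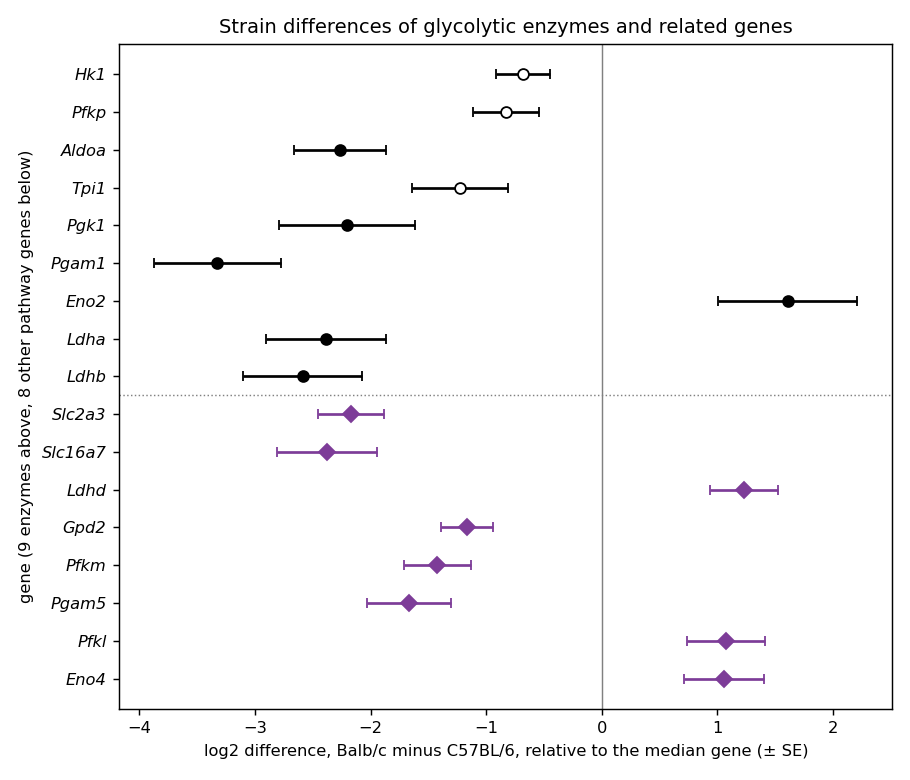
Points are log2 differences, Balb/c minus C57BL/6, relative to the median gene, with bars of ± 1 SE from limma over 5 and 14 arrays. Filled symbols passed at an adjusted p under 0.05. Circles are the 9 enzymes, from Pgam1 at −3.32 to Eno2 at +1.61, and diamonds the 8 other pathway genes with the smallest p, 5 of them below 0 and 3 above.

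Within C57BL/6 the bright enzymes rose and fell together from array to array. Over its 14 arrays the 10 pairs among Aldoa, Pgk1, Pgam1, Ldha and Ldhb correlated at 0.55 to 0.87, with 0.870 for Pgam1 and Ldhb. Over all 36 pairs of the 9 enzymes the range was −0.54 to 0.87 with a median of 0.353, and Hk1 and Tpi1 gave the lowest value. The non-member genes most like the mean of the 9 enzymes over these arrays were Atp5mpl (r = 0.918), Tmem130 (0.917), Fam216a (0.912), Prkacb (0.909) and Pebp1 (0.905). All of these points share their array's amplification and depth of signal, and the correlations are a description. Between the strains 3 of these 5 genes were lower in Balb/c, Tmem130 at −3.01 (adjusted p = 0.00182), Pebp1 at −2.31 (adjusted p = 0.00162) and Prkacb at −2.08 (adjusted p = 0.0155). Of all genes 11.4% were called lower, and 27.6% in the fit that left out genes under the sensory receptor level. Fam216a was at −1.34 (adjusted p = 0.0778) and Atp5mpl at −0.15 (adjusted p = 0.897).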

How the data were processed

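Per probe set, the authors deposited log2 expression values. These came from RMA (2.0 by the submitters' processing notes), which summarised a set by the upper decile of its probes. Dendrite RNA went through repeated rounds of amplification before labelling. The median centring and range scaling that the methods name were not in the values. The table held 45101 probe sets. The platform annotation gives 1 gene symbol for 34945, several for 932 and none for 9160, and 64 are controls. Gene values were medians over probe sets naming that gene alone. No genome build is named for the probes, so no probe positions are given.

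Strains were compared with limma 3.58.1 (R 4.3.3) on all genes, or all non-control probe sets, with strain as the only term and Benjamini-Hochberg adjustment at 0.05. The number of arrays and the larger spread of the enzymes in Balb/c limit the precision. The labels call the pools biological replicates, but whether separate cultures or animals lay behind them is not stated. The p-values therefore reflect variation among pools, which may be in part technical. The fitting script was tested on simulated data. Alternatives covered gene summary, scaling, a filter on dim features, the methods' t-test (equal variances), array weights, pool size, number format, a replicate block and left-out arrays. Members and lists were chosen with earlier results of these data known. The text names all members, the 8 other pathway genes with the smallest p, the 5 genes most like the members, and the Gapdh and Actb controls. Gpi1 matched no probe set by symbol or gene identifier in the annotation used.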

Additional observations from a re-analysis of the deposited data

Results flagged for a closer look

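In 29 groups of 5 Balb/c values, those of each enzyme and each probe set together, 2 held an array whose gap to its nearest neighbour exceeded 0.71 of the range. Chance gives about 1 in 20. The Pfkp probe set 1437759_at read 10.96 on Balb/c 100-1 with the next array at 7.33, and the Aldoa probe set 1416921_x_at read 9.51 on the same array with the next at 10.68.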

How the results depend on the processing

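Counts here are of enzymes lower and higher, their probe sets lower and higher, other pathway genes lower and higher, and all genes, which were 5, 1, 13, 1, 10, 8 and 5910 as reported. No difference of an enzyme that passed changed sign. With median centring and range scaling 8 enzymes were lower and 1 higher, beside 14.6% and 14.3% of all genes. Quantile normalisation gave 7 lower and 1 higher, beside 13.9% and 15.2% of all genes. The probe set of the highest mean also gave 7 and 1, beside 14.1% and 20.6%. With the number format as a block the counts were 1, 0, 0, 0, 1, 0 and 350. Within the longer format they were 0 throughout. With the replicate block, 0 of every count passed (18193 genes fitted), and the enzymes had adjusted p of 0.176 to 0.788. The replicate numbers did not pair the arrays, since deviations of same-numbered arrays correlated at −0.19 to 0.071, and the pool size slope cannot be fitted beside the block. Without Balb/c 100-2 and 400-1 (chosen after seeing the data) the counts were 2, 0, 6, 0, 5, 4 and 2062. Without the 3 arrays between the strains 2 probe sets were higher. With the number format as a block as well (chosen after seeing the data), the counts were 4, 0, 10, 0, 7, 5 and 3663. That fit called 8.37% of all genes lower and 11.8% higher, and 1 gene had a pool size slope. Single enzymes also changed call when 1 array was left out: without Balb/c 100-2 Pfkp passed as lower and the higher pathway genes fell to 5, without Balb/c 200-1 Hk1 (−0.88) and Tpi1 (−1.73) passed, and without C57BL/6 200-4 or 200-5 Tpi1 passed (−1.32 and −1.33). The single higher probe set was lost without Balb/c 100-2 or 400-2. In pools of 400 dendrites 0 enzymes and 0 probe sets were higher, 4 and 3 pathway genes were lower and higher, and 3093 genes differed. In pools of 100, 0 enzymes and 0 probe sets were higher, 8 probe sets were lower, 2 and 1 pathway genes were lower and higher, and 2085 genes differed. Without dim features (1228 genes left, 2 of them other pathway genes) 0 enzymes and 0 probe sets were higher, 0 and 0 pathway genes passed and 454 genes differed, and 5 enzymes were tested. Higher pathway genes were 4 with the probe set of the highest mean, 5 without ambiguous probe sets and 5 with array weights. The cause of these shifts was not tested.

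Leaving out 1 array at a time gave 4 to 7 enzymes lower, 0 to 1 higher, 10 to 14 probe sets lower, 0 to 2 higher, 7 to 11 pathway genes lower, 5 to 11 higher, 4093 to 6694 genes in all, and 0 to 0 slopes or interactions. Signal near the array background limits Pfkp, Eno2, 1 of the 2 Hk1 probe sets and most Tpi1 readings.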
